A study of Mus musculus with 11 samples.

Results

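The olfactory receptor cluster on mouse chromosome 2 was examined for occupancy by PU.1 in erythroid cells, both leukemic and normal. Its members were the protein-coding genes whose symbol begins with Olfr and that lie on chromosome 2 between 85 and 91 Mb of the mm9 genome build. This rule gave 221 of the 22367 protein-coding genes on the main chromosomes. They spanned chr2:85171054-90122730, which is 4.95 Mb, with 148 genes on the minus strand and 73 on the plus strand. The median member was 957 bp long, and the median distance between the starts of adjacent members was 18722.5 bp. For 133 members the annotated transcription start site (TSS) was also the first base of the coding sequence, so their upstream exons, if any, were not in the annotation. Expression of these genes was not measured in these files.

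PU.1, encoded by Sfpi1, is an Ets family transcription factor of blood cells that was mapped by chromatin immunoprecipitation and sequencing (ChIP-Seq) with input DNA as the control. The leukemic cells were MEL cells, a murine erythroleukemia line, of clone DS19 by the study's methods and clone 4 by the labels, stably carrying Gata-1 fused to ER. The line was grown under puromycin. The normal cells were ES-EP, erythroid progenitors derived from embryonic stem cells and grown with erythropoietin, IGF-1, dexamethasone and stem cell factor. Each cell type had 2 chromatin preparations, A and B, of 2 ChIP libraries each. MEL cells had 1 input library and ES-EP had 2. The 11 libraries held between 2054667 and 5051235 reads each, and the letters of the preparations do not link a MEL preparation to an ES-EP preparation. Each MEL sample came from a single clone, so spread between clones was not measured, and reads from whole cultures cannot tell weak occupancy in every cell from occupancy in a few cells.

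Olfactory receptors are G protein-coupled receptors of olfactory sensory neurons, and the family is among the largest in the mouse genome. Their genes sit in dense tandem arrays that grew by duplication. A mature sensory neuron is thought to express a single receptor allele, while the arrays are held in closed chromatin elsewhere. In erythroid cells the cluster is therefore a stretch of DNA in which little occupancy of a blood transcription factor would be looked for.

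Across the whole cluster the PU.1 ChIP held slightly fewer reads than input scaled to the same total, in both cell types. Reads were moved to the middle of the fragment before counting, by 70 bp for MEL cells and by 65 bp for ES-EP. Levels are given as RPM, the reads of a library scaled to 1000000 reads in all. In MEL cells preparation A had 5927 reads in the cluster (1040 RPM) and preparation B had 6739 (964 RPM), beside 4611 input reads (1078 RPM). The ChIP to input ratio was 0.930 ± 0.0497 (SD, n = 2 preparations). In ES-EP preparation A had 7474 reads (1189 RPM) and preparation B had 7996 (1127 RPM), beside 9200 input reads (1228 RPM). The ratio was 0.943 ± 0.0359 (SD, n = 2 preparations). All 4 preparations were below 1 with input scaled by total reads. With input scaled by the median ratio ES-EP preparation A was at 1.00 and the other 3 stayed below 1. That median ratio was taken with both preparations of a cell type summed, so the preparations shared a factor and were not scaled separately. The ratios of the cell types overlapped. Their difference of -0.0126 (MEL minus ES-EP) had p = 0.667 in a two-sided exact permutation test, for which 2 against 2 preparations cannot go below 0.333.

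The level was also even along the cluster. When the span was divided into 10 equal segments, the ratio ran from 0.903 to 1.02 in MEL preparation A and from 0.814 to 0.987 in MEL preparation B. It ran from 0.892 to 1.12 in ES-EP preparation A and from 0.839 to 1.02 in ES-EP preparation B. The highest segment of both ES-EP preparations was the second, which held 30 members and the sites beside Olfr1040 and Olfr1044 described below.

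Properties of the libraries moved with this level. The first library of each preparation put more of its reads in the cluster than the second in 4 of 4 ChIP preparations and in the ES-EP input, by 1.12 to 1.25 times. The first library also had the lower GC content in each of these 5 pairs, from 42.8% to 45.0% against 45.2% to 46.5%. The cluster itself was low in GC, with a median of 36.8% per 500 bp bin. The part of GC content in the level was not tested. Chromosome 2 as a whole took 7.26% to 7.48% of reads in the MEL libraries. In the ES-EP libraries it took 7.79% to 8.55%, with inputs included in both. The level of the whole cluster in RPM was therefore compared with the input of its own cell type only. The main comparisons of windows, bins and sites between the cell types were scaled by total reads, without input. Depth-scaled MEL input was 0.877 times ES-EP input over the cluster and 0.863 times over chromosome 2. The part of this in those comparisons was not tested. Finally, 69.2% of the 27-base words of the cluster were unique in the genome, and the reads that fell on other words made up 0% to 1.71% of a library's reads in the cluster.

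No member passed the test for PU.1 ChIP reads above input at its TSS in either cell type. In the 500 bp around each TSS, 0 of 221 members passed for MEL cells and 0 of 221 for ES-EP (exact binomial test against depth-scaled input with Benjamini-Hochberg adjustment over all genes, and both preparations above input). Over all 22367 genes the same test called 10.2% of windows for MEL cells and 8.91% for ES-EP. At an unadjusted p under 0.05, 2 members were left for MEL cells and 0 for ES-EP. The 2 were Olfr994, with 0 and 0 ChIP reads and 3 input reads, and Olfr1239, with 1 and 1 ChIP reads and 4 input reads, so both were below input. A 2000 bp window gave 0 members in both cell types as well.

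The counts behind this were small. The members' windows held 166 ChIP reads of MEL preparation A, 204 of preparation B and 151 of the input. In ES-EP they held 214, 229 and 230 reads. The median member had 1 ChIP read over both MEL preparations and 2 over both ES-EP preparations, with a maximum of 9 and 11. No ChIP read fell in the windows of 53 members in MEL cells and of 43 in ES-EP, and 16 members had none in either. A count of 0 allows up to 3 reads, and these limits cover counting error only.

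This depth sets what could have been called. Among all genes with no input read, the called TSS window with the fewest reads had 20 ChIP reads for MEL cells and 14 for ES-EP. All members were under these counts. A raised level of a few reads at a single member was therefore not detectable at this depth. Counting alone gives members a variance equal to the mean. In MEL cells the variance was 1.11 (A), 1.27 (B) and 1.16 (input) times the mean. In ES-EP it was higher, at 1.47, 1.44 and 1.38 times, input included.

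The 5 members with the most reads in each cell type shared Olfr1137, but these ranks rest on few reads. In MEL cells Olfr987, the first gene of the cluster, was highest with 5 and 4 reads in preparations A and B and 0 in the input, and in ES-EP it had 3 and 2 reads and 0 in the inputs. Olfr1137 followed with 2 and 4 reads, and Olfr1099 with 4 and 1. Their input counts were 0 and 1. Olfr1143 had 3 and 2 reads and Olfr142 had 2 and 3, both with no input read. None of the 5 had an adjusted p below 0.423.

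In ES-EP Olfr1044 was highest with 4 and 7 reads and 5 in the input, so its input was high too. Olfr1234 had 6 and 2 reads and Olfr1137 had 2 and 6, each with 1 input read. Olfr1246 had 6 and 1 reads with 2 input reads, and Olfr1138 had 3 and 4 with 1. The preparations disagreed at Olfr1234, Olfr1137 and Olfr1246, and none of the 5 had an adjusted p below 0.632. The windows of Olfr987 and Olfr142 held 58.4% and 59.0% unique words, and those of the other members with the most reads held 93.4% or more.

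The level at the members' TSSs was near that of olfactory receptor genes elsewhere and below that of other genes. Summed over windows, the depth-scaled ChIP to input ratio of the members was 0.825 in MEL preparation A, 0.827 in MEL preparation B, 1.11 in ES-EP preparation A and 1.05 in ES-EP preparation B. For the 892 other Olfr genes it was 0.920, 0.794, 0.974 and 0.987 in the same order. The ratio of these genes to the members was 0.969, with the preparations on both sides of 1 (p = 0.625, two-sided exact sign-flip permutation test over 4 preparations). For the 21234 other genes the ratio was 1.94, 3.30, 1.94 and 1.11. It was higher than that of the members in 4 of 4 preparations, by 2.04 times on average, and its p was the smallest that 4 preparations allow in the same exact test, which is above 0.05. ES-EP preparation B lay nearest, at 1.11 against 1.05. The windows of the other genes held 232363 of 7488885 input reads in ES-EP and 54028 of 4278560 in MEL cells. The part of this high ES-EP input in the ES-EP ratios was not tested. Without 12 windows of over 100 input reads, the ratio of the other genes was 1.70, 3.15, 2.26 and 1.36 in the same order. The other genes' windows then held 172758 input reads in ES-EP and 51635 in MEL cells. The members' ratios did not change. This alternative was chosen after the data were seen.

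Windows of the members were lower in GC than those of the other genes, with a median of 35.2% against 58.0%, and 39.8% for the other Olfr genes. Their unique share had a median of 92.4% against 100%. Whether base composition moves the ratio was not tested. The profile in 100 bp steps from 2000 bp before to 2000 bp after the TSS showed the same. Other genes rose to a highest step within 50 bp of the TSS in all 4 preparations, at 1.86 (A) and 3.57 (B) for MEL cells and at 2.68 (A) and 1.50 (B) for ES-EP. The highest steps of the members were 1.94 at 250 bp downstream (MEL A), 1.95 at 950 bp upstream (MEL B), 1.77 at 850 bp upstream (ES-EP A) and 1.41 at 50 bp downstream (ES-EP B). At other steps the preparations of MEL cells rose together, with 1.94 and 1.84 at 250 bp downstream and 1.92 and 1.60 at 850 bp downstream. They share 1 input library, and the input of a step summed over 221 genes is a small count. At 850 bp downstream the 892 other Olfr genes were also raised in MEL cells, at 1.88 and 1.82, beside 0.943 and 1.04 in ES-EP. At 250 bp downstream they were not, at 0.879 and 0.870 in MEL cells. The cause of these steps was not tested.

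**Figure D1:**
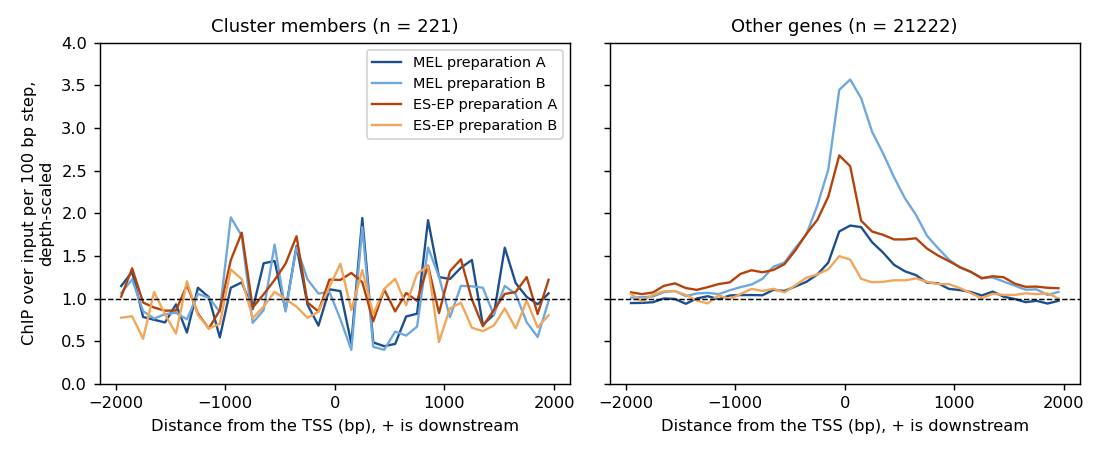
Depth-scaled PU.1 ChIP reads over input reads per 100 bp step (vertical axis) against the distance from the TSS in bp (horizontal axis), for cluster members on the left and other genes without very high input on the right, 1 line per preparation. The right panel peaks at the TSS at 1.50 to 3.57, and the left panel moves irregularly around 1.

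Between the cell types no member was called as different at its TSS. With limma on the 2 preparations of each cell type, 0 of 221 members and 0% of all 22367 TSS windows passed an adjusted p of 0.05. At an unadjusted p under 0.05 the members numbered 8, or 3.62%, beside 5.80% of all windows. The lowest adjusted p of a member was 0.807. Of the 8, 5 were higher in ES-EP and 3 in MEL cells. Among them Olfr1039 had 0 and 0 MEL reads against 2 and 3 of ES-EP, with a log2 difference of -2.49 (SE 0.873, MEL minus ES-EP). Olfr1044 had 0 and 2 MEL reads against 4 and 7 of ES-EP, with a log2 difference of -2.29 (SE 0.889). Olfr1085, with 3 and 1 against 0 and 0 reads, went the other way at 2.22 (SE 0.960). Olfr1255 and Olfr1265 both had 0 and 0 MEL reads against 3 and 2 of ES-EP, at -2.47 (SE 0.883). Only 7 members had 10 or more ChIP reads over the 4 preparations, so the test had little to work on.

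Single sites rose above this background, most of them away from the annotated TSSs. The span was divided into 9904 bins of 500 bp, and a bin was called when its ChIP reads exceeded the highest of 4 background rates by a Poisson test with Benjamini-Hochberg adjustment over all bins of the genome. The rates came from the genome mean and from input in the bin, in 5 kb and in 10 kb. Each preparation also needed at least 3 reads and a count above its own share of that background. In MEL cells 8 bins of the cluster were called, or 0.0808%, against 0.508% of all bins. In ES-EP 10 bins were called, or 0.101%, against 0.352% of all bins. Both shares were below the background share. In the cluster the ChIP libraries held 47.0% to 67.5% of the genome's mean density, and the background rate could not go below the genome mean. A bin of the cluster thus had to rise further above its surroundings to be called. The part of this in the lower shares was not tested. The counts moved with the processing. In MEL cells they were 1 without preparation A, 3 without preparation B, 3 without the read shift, 5 with 1 read kept per position and strand, and 11 with the bins moved by 250 bp. In ES-EP the count was 2 without preparation A and between 8 and 11 in the other alternatives. 1 bin was called in both cell types, and merging adjacent bins gave 15 sites, of which MEL cells alone had 6, ES-EP alone had 8 and 1 was shared.

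**Figure D2:**
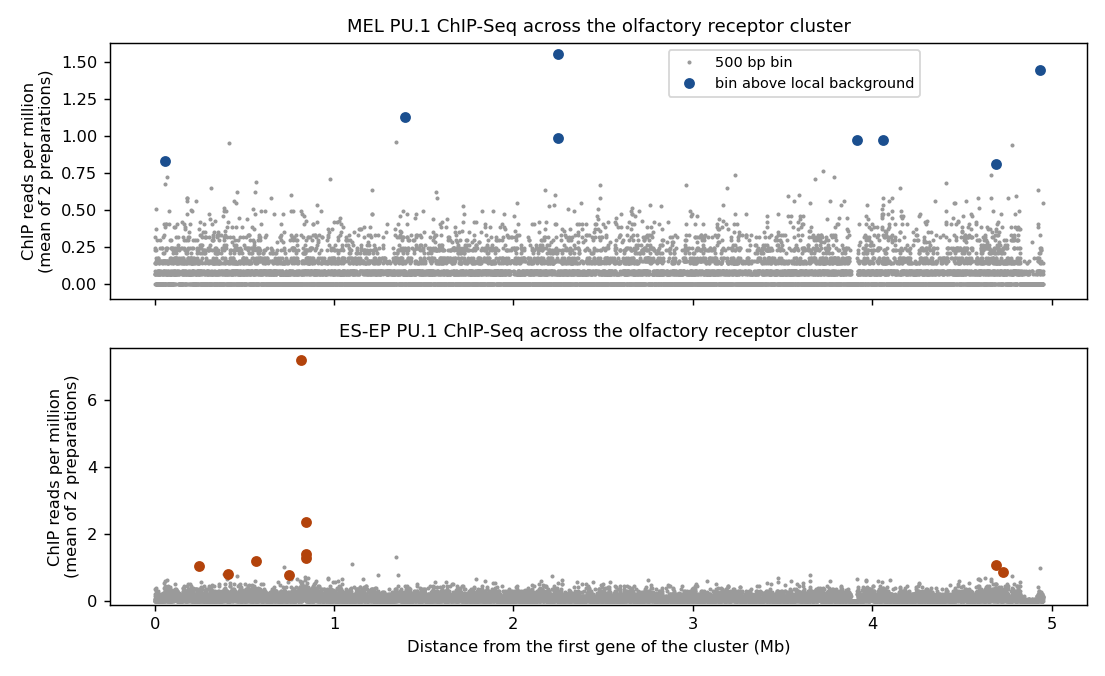
PU.1 ChIP RPM in each 500 bp bin (vertical axis, mean of 2 preparations) against the distance from the first gene of the cluster in Mb (horizontal axis), MEL cells above and ES-EP below; large points are called bins. The vertical axes differ between the panels, and the ES-EP bin beside Olfr1040 stands apart from all other bins.

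Bins were sparse. In MEL cells the mean bin held 0.598 ChIP reads of preparation A and 0.680 of preparation B, and 61.0% and 56.9% of bins held none. In ES-EP the means were 0.755 and 0.807, with 54.5% and 51.9% at 0. The variance over bins, called ones included, was 1.42 to 2.06 times the mean in the ChIP preparations. In the inputs it was 1.31 (MEL cells) and 1.40 (ES-EP) times. The Poisson test takes the variance to equal the mean, so its p-values cover counting error only. The called bins were weak ones by the standard of the genome. Their median was 12 reads over both MEL preparations, beside 24 for all called MEL bins. In ES-EP it was 15 beside 26.

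Most of the cluster is intergenic, and the sites lay there too. Of the 15 highest points, 14 were intergenic and 1 was in the intron of Olfr140. None was in an exon. The middles of 89.4% of all bins of the cluster were intergenic. The distance to the nearest member's TSS had a median of 4906 bp and ran from 365 bp to 16835 bp, beside a median of 5995 bp for all bins. Only 2 sites were within 500 bp of a TSS, namely those 365 bp upstream of Olfr1044 and 399 bp upstream of Olfr1264. For both genes the annotated TSS is the first base of the coding sequence. How far the sites upstream of these genes lie from the true starts is therefore not known. Neither highest point was inside the 500 bp windows centered on the TSSs. The called bin beside Olfr1044 overlapped the TSS window of that gene, so its count and that of the window share sequence. Within 10 kb of a member's TSS 6 of 7226 bins were called for MEL cells and 9 for ES-EP, or 0.0830% and 0.12%. Within 10 kb of the other Olfr genes the shares were 0.156% and 0.152%.

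The sequence at the sites with the most reads is shown next, because PU.1 is known to bind a purine-rich core with GGAA. The sites with the most reads were those beside Olfr1040 and Olfr1044 in ES-EP and those beside Olfr1129 and Olfr1271 in MEL cells, and the site beside Olfr1264 was the one called in both. Each run is 300 bases of the plus strand of mm9 around the highest point, 5′ to 3′. Capitals mark GAGGAA or its reverse complement, or, where that word is absent, GGAA or its reverse complement.
Olfr1040 site, chr2:85984457-85984756: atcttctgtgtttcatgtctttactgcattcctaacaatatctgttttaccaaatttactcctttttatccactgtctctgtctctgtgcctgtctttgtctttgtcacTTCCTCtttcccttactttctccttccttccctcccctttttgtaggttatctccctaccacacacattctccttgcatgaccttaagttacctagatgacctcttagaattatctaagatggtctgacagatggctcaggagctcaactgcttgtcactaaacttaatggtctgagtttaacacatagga
Olfr1044 distal site, chr2:86015719-86016018: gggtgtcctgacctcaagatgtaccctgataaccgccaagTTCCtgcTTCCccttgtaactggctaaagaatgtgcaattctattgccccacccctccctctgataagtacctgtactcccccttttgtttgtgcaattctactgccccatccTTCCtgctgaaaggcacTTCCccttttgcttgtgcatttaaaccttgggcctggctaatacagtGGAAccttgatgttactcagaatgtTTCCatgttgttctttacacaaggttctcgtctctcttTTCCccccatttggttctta
Olfr1129 site, chr2:87418818-87419117: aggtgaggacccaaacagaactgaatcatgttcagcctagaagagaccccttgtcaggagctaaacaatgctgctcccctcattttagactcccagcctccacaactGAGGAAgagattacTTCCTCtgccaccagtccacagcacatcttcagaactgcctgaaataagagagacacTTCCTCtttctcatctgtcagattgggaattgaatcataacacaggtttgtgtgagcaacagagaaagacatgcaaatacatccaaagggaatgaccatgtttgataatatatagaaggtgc
Olfr1271 site, chr2:90103984-90104283: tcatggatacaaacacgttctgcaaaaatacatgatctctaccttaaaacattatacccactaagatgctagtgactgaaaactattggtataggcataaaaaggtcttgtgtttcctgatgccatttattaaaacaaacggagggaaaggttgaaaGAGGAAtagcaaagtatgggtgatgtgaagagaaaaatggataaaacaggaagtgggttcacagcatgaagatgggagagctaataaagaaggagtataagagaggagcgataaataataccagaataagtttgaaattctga
Olfr1264 site, chr2:89862470-89862769: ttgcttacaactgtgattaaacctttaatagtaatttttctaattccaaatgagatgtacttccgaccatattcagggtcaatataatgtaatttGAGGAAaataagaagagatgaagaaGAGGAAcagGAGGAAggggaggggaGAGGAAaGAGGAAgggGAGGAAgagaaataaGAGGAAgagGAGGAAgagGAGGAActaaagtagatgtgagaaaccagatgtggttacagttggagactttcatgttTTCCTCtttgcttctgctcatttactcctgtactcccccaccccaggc

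The longer words were more frequent at the sites than over the cluster as a whole. GAGGAA, counted on both strands, was present in 8 of the 15 sites' 300 bases, or 53.3%, beside 25.5% of the 300-base tiles of the cluster and 25.8% of those of chromosome 2. GAGGAAG, which contains GAGGAA, was present in 5 sites, or 33.3%, beside 5.88% and 9.0%. GGAA is so short that 94.8% of tiles hold it, and all 15 sites did. These are descriptions of the letters, and no test was made. The Olfr1040 site had 1 match to GAGGAA, 38 bp from its highest point, which was also a match to GAGGAAG. The Olfr1129 site had 3 matches to both words. The Olfr1264 site had 10 matches to GAGGAA and 5 to GAGGAAG. The distal Olfr1044 site held no GAGGAA and 7 matches to GGAA. Among the members' TSS windows 46.2% held GAGGAA and 17.6% held GAGGAAG, beside 41.7% and 21.6% of all TSS windows.

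The strongest site of the cluster lay 2282 bp downstream of the TSS of Olfr1040, past the end of the gene, and was called in ES-EP. Libraries A1 and A2 had 24 and 38 reads in the bin and libraries B1 and B2 had 9 and 23, with 1 input read. All 4 libraries of MEL cells had 0 reads, and the MEL input had 0. The groups did not overlap, at a bin picked by its ES-EP call. The 94 ES-EP reads were 35.9 times the background of 2.61 reads (adjusted p = 1.01e-104, Poisson test). They stood at 60 distinct positions, and the site was called with 1 read kept per position and strand and in each preparation used alone. Against the limit of 3 reads over both MEL preparations, the ES-EP level in RPM was at least 29.7-fold higher. Of all ES-EP bins called in the genome, 10.3% had as many reads or more. With no read in MEL cells there were 87 called ES-EP bins genome-wide, and this was the highest of them.

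The lack of MEL reads was not limited to the ChIP. Around this site a stretch of 9118 bp, chr2:85977722-85986839, held no read in any of the 5 MEL libraries, input included. It held 170 ES-EP reads, of which 22 were from the inputs. Of its 27-base words 78.3% were unique, and at the mean MEL density over unique words of the cluster it would have held 36.0 reads. The same search, for stretches with no read that would have held 20 or more at that mean, found no other in MEL cells and none in ES-EP in the whole cluster. It was made after the counts at the site were seen. The stretch covered nearly all of Olfr1040, a single-exon receptor gene on the minus strand, and ended 50 bp before its TSS.

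MEL reads were few over a longer distance on the side of Olfr1039. From 14 kb before to 2 kb after the highest point, 16 kb in all, MEL cells had 4 ChIP reads and 0 input reads, where the cluster mean would give 64.5. ES-EP had 170 ChIP reads and 38 input reads, where the mean would give 92.2. Olfr1039, with no ChIP or input read at its TSS in MEL cells, lies inside this window. Beyond it MEL reads were present on both sides. Since the input was empty as well, MEL DNA that lacks or differs in this sequence and MEL DNA without PU.1 at the site cannot be told apart, and the fold of at least 29.7 is a difference in reads, not in occupancy.

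**Figure D3:**
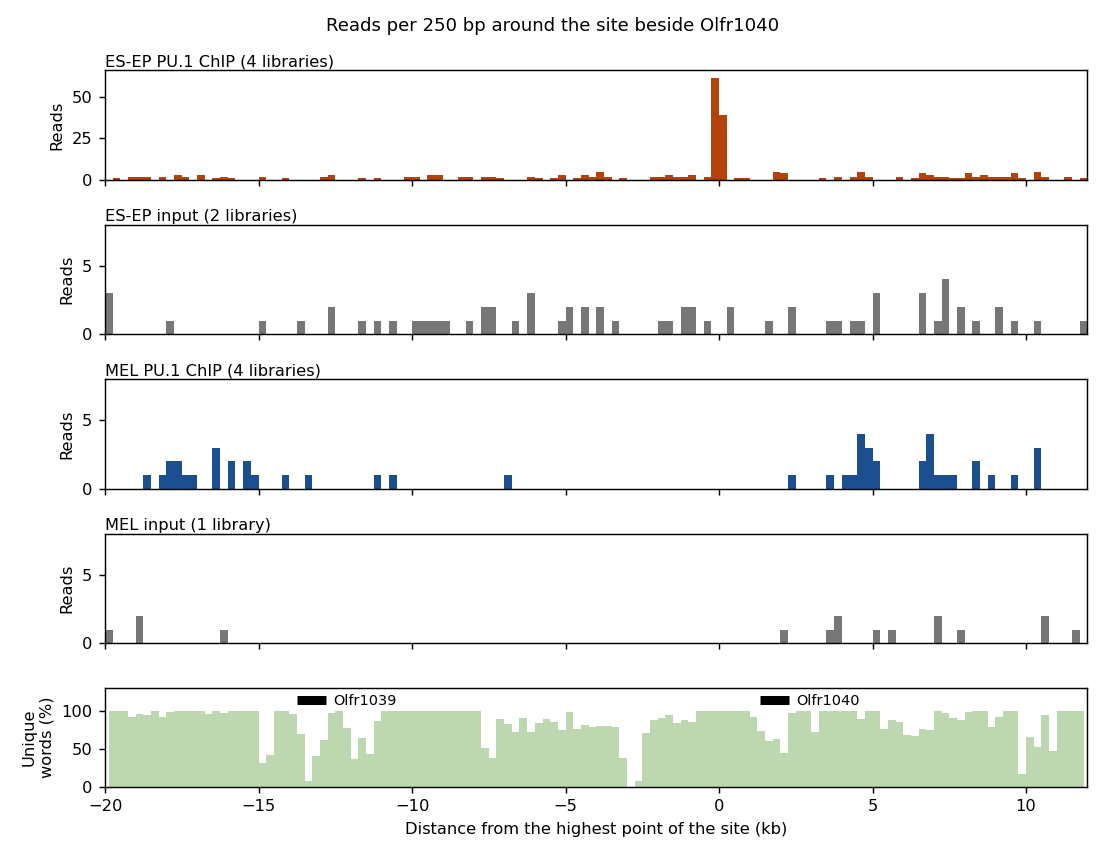
Reads per 250 bp (vertical axes, one scale per panel) in ES-EP ChIP, ES-EP input, MEL ChIP and MEL input, and the share of unique 27-base words, against the distance in kb from the highest point of the site beside Olfr1040; black bars are member genes. ES-EP input reads run across the map, while MEL ChIP and input reads are nearly absent from 14 kb before to 2 kb after the site.

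The reads of the Olfr1040 site were uneven between strands. A bound protein is expected to give plus-strand reads on its left and minus-strand reads on its right. In the bin 6 reads were on the plus strand and 88 on the minus strand, although all words of the bin were unique. The distal Olfr1044 site had 17 and 32 reads, and the Olfr1129 site had 12 and 19 in MEL cells. At 3 weaker sites one strand held nearly all reads, with 17 plus and 1 minus at Olfr1271, 10 plus and 0 minus at Olfr1264 and 0 plus and 14 minus at Olfr1089, all in MEL cells. In ES-EP the Olfr1271 site had 11 plus and 2 minus reads and the Olfr1264 site 11 and 3, and the Olfr1089 site had 1 plus and 5 minus reads. The part of strand in these calls was not tested, and fragments cut or mapped on one side and a bound protein cannot be told apart there.

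The next ES-EP site by reads lay upstream of Olfr1044. Its 2 bins, 3897 bp upstream of the TSS at the highest point, held 14 and 20 reads in libraries A1 and A2 and 5 and 10 in B1 and B2, with 1 input read. MEL libraries held 1, 2, 0 and 2 reads, with 1 input read. All ES-EP libraries were above all MEL libraries in RPM, at a site picked by its ES-EP call. The higher bin had 31 ES-EP reads, 11.6 times background (adjusted p = 2.62e-19, Poisson test). Here MEL reads were present nearby, with 10 ChIP and 4 input reads within 2000 bp. Unique words made up 67.1% of the site. Another site 365 bp upstream of Olfr1044 had 10 and 7 reads in ES-EP preparations A and B and 2 in the input, against 1 and 3 reads of MEL cells and 0 in their input (adjusted p = 0.000421 in ES-EP). Library counts there were uneven, with 1 and 9 reads in A1 and A2 and 6 and 1 in B1 and B2.

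The remaining ES-EP sites had 11 to 16 reads. The site 1470 bp upstream of Olfr996 had 7 and 7 reads in preparations A and B and 1 in the input (adjusted p = 0.000439). The site 6595 bp downstream of Olfr1023 had 8 and 8 reads and 0 in the input (adjusted p = 1.15e-05), and MEL cells had 3 and 6 reads there, so both cell types held reads. In the intron of Olfr140, 5176 bp downstream of its TSS, ES-EP had 5 and 7 reads and no input read (adjusted p = 0.00697). The sites beside Olfr1009 (4 and 7 reads) and Olfr1037 (3 and 8 reads) each had an adjusted p of 0.0274, and both calls were lost when 1 read per position and strand was kept. The Olfr1023 and Olfr1037 sites held 48.8% and 39.8% unique words.

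In MEL cells the strongest site lay 4906 bp downstream of the TSS of Olfr1129. Its 2 bins held 6 and 14 reads in libraries A1 and A2 and 1 and 10 in B1 and B2, with 1 input read. ES-EP libraries held 3, 5, 2 and 1 reads and no input read. The groups overlapped, since library B1 of MEL cells lay among the ES-EP libraries. The higher bin was 6.41 times background (adjusted p = 2.40e-07, Poisson test). The site was called with preparation A alone and not with B alone, and none of the 15 sites was called with MEL preparation B alone. The bin called with B alone lay 1763 bp from the TSS of Olfr1086, with 2 and 11 reads in MEL preparations and no input read. In ES-EP this bin had 15 and 2 reads and 1 input read and was called with preparation A alone, so that in each cell type 1 preparation was under the minimum of 3 reads. The site 2451 bp downstream of Olfr1271 had 10 and 8 reads in preparations A and B and 2 in the input, with 8 and 5 reads in ES-EP and 5 in the input. Its MEL count was 3.04 times background (adjusted p = 0.0118).

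The other MEL sites had 10 to 14 reads. The site beside Olfr1089 had 8 and 6 reads, all of them in the second library of each preparation and at 8 distinct positions. The ES-EP reads there, 4 and 2, also came from second libraries only. The sites beside Olfr1228 and Olfr1238 had 7 and 5 MEL reads each in preparations A and B. In ES-EP Olfr1228 had 5 and 4 reads and Olfr1238 had 1 and 3. At Olfr1228 the first libraries held 6 and 4 of the MEL reads and 4 and 4 of the ES-EP reads. The site 10556 bp downstream of Olfr992 had 3 and 8 MEL reads (adjusted p = 0.0496, Poisson test) and 5 and 3 ES-EP reads. At Olfr1228 and Olfr992 both cell types thus held reads, and only the MEL count passed. The calls at Olfr992 and Olfr1089 were lost when 1 read per position and strand was kept.

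The Olfr1264 site was the only bin called in both cell types. It had 6 and 4 MEL reads in preparations A and B with no input read (adjusted p = 0.0496) and 11 and 3 reads in ES-EP with 2 input reads (adjusted p = 0.00806). Of all called bins in the genome, 36.2% of those of MEL cells were also called in ES-EP and 52.3% of those of ES-EP in MEL cells. Here the shares were 1 of 8 and 1 of 10. The MEL call was lost when 1 read per position and strand was kept, and the ES-EP call was not. Without the read shift both calls were lost.

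**Figure D4:**
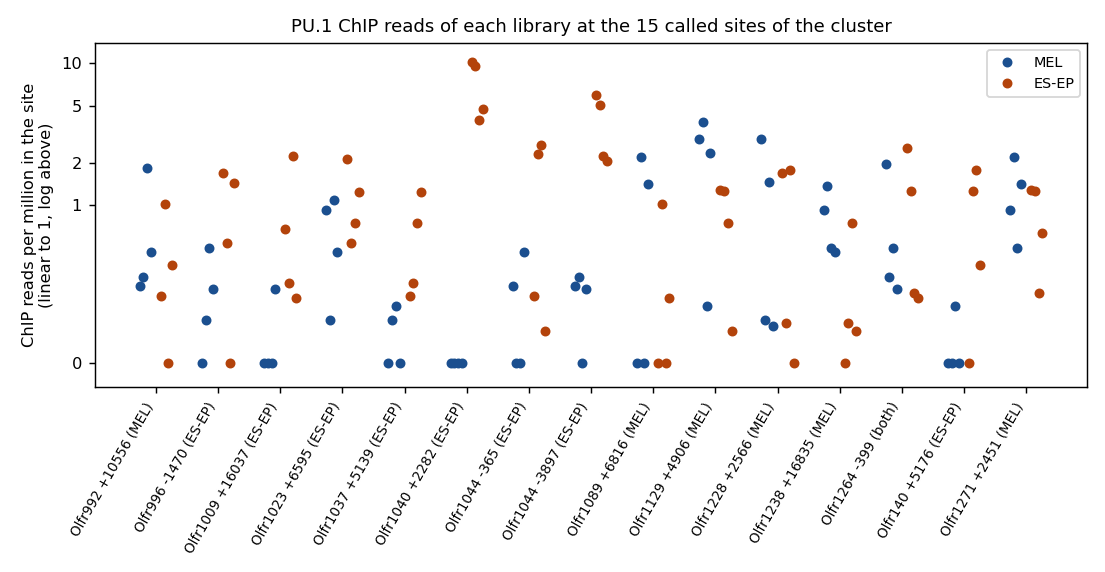
PU.1 ChIP RPM in each of the 15 sites (vertical axis, linear to 1 and logarithmic above), with 1 point per library, 4 of MEL cells and 4 of ES-EP; names give the nearest member, the distance from its TSS in bp and the cell type of the call. The ES-EP libraries lie above all MEL libraries at the Olfr1040 site, the distal Olfr1044 site and the Olfr1037 site. The last has 1 to 6 reads per ES-EP library and 0 or 1 per MEL library. These sites were picked because ES-EP passed the call there, so part of this separation follows from the selection.

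The test of the difference between the cell types called no bin of the cluster. Of 9904 bins, 201 had 10 or more ChIP reads over the 4 preparations and were tested with limma. At an adjusted p of 0.05 the count was 0, beside 0.078% of the 494823 bins tested in the genome (271 higher in MEL cells and 115 higher in ES-EP). At an unadjusted p under 0.05 it was 4 bins, or 1.99%, beside 2.63% of all bins tested. They were the Olfr1040 bin, a bin each of the distal Olfr1044 and Olfr1129 sites, and the Olfr1089 bin. For the Olfr1040 bin the log2 difference was -6.42 (SE 2.51, MEL minus ES-EP, limma adjusted p = 0.887). It passed on log2 CPM with 0.5 added (limma adjusted p = 6.52e-08), with each library as a sample (1.05e-05) and with the preparation letter as a block (0.0231), and missed in the other 7 alternatives at 0.535 to 0.943. Libraries of the same preparation are not independent replicates, so the pass with each library as a sample counts more replicates than there were. With no MEL read in the Olfr1040 bin, the size of its log2 difference depends on the fit. This size was -3.85 on log2 CPM with 0.5 added, -5.36 with each library as a sample and -5.85 to -6.97 in the other alternatives. The higher bin of the distal Olfr1044 site had a log2 difference of -2.87 (SE 1.35) and the higher Olfr1129 bin one of 1.85 (SE 0.624), with limma adjusted p of 0.887 and 0.652.

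The interval from the last member up to 91 Mb held 1754 bins, of which 20 were called for MEL cells and 25 for ES-EP, or 1.14% and 1.43%. The gene Sfpi1 lies there, 799.8 kb past the last member. Between 20 kb before and 2 kb after its TSS, the bin with the most reads lay 11796 bp upstream and overlapped the TSS window of the neighbouring gene Slc39a13, which encodes a zinc transporter. This bin had 85 reads of MEL preparation A, 303 of MEL preparation B, and 366 and 293 of ES-EP, with 5 and 18 input reads. Every preparation had more reads there than at any bin of the cluster. Of the 15 non-olfactory protein-coding genes of the interval, 3 had a TSS window above input, the same 3 in both cell types: Slc39a13, Ptprj and Fnbp4. The window of Slc39a13 had 71 and 228 MEL reads beside 292 and 220 of ES-EP. The window at the outermost annotated start of Sfpi1 was not called. A bin centered 704 bp past it, inside the gene as annotated, was called in both cell types. It had 23 and 96 MEL reads with 4 input reads, and 33 and 38 ES-EP reads with 3 input reads. The paper reports very high PU.1 occupancy at an upstream regulatory element of Sfpi1. Distances here run from the outermost start, and where that element lies relative to these bins was not determined.

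Genes that act with olfactory receptors were counted in the same way. A list of 18 genes held the signalling chain of the sensory neuron (Adcy3, the Cnga2, Cnga4 and Cngb1 channel subunits, Gng13, Gnb1, Ano2 and others), receptor transport proteins (Rtp1, Rtp2, Reep1), the marker Omp and regulators of receptor choice (Lhx2, Ldb1, Emx2, Ebf1, Kdm1a). In MEL cells 2 of 18 were above input at the TSS, which is near the 10.2% of all genes, and in ES-EP 0 of 18 were, beside 8.91%. They were Kdm1a, a histone demethylase, with 9 and 19 reads and no input read (adjusted p = 0.0101), and Ldb1, a cofactor of LIM proteins that also acts in erythroid cells, with 25 and 38 reads and 7 in the input (adjusted p = 0.0270). In ES-EP these had 22 and 17 reads with 30 in the input, and 53 and 23 with 38. The difference between the cell types at these genes did not pass (limma adjusted p of 0.875 and 0.977). The window of Cngb1 held no unique word, so it could not be measured.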

How the data were processed

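PU.1 ChIP-Seq and input DNA of MEL cells and ES-EP were sequenced on an Illumina GAII, and the authors aligned the reads to mm9 with ELAND, keeping unique matches with up to 2 mismatches. The deposited files give the position and strand of every aligned read, and the authors' peak calls were not used here. The 5′ end of each read was moved by 70 bp (MEL cells) or 65 bp (ES-EP) toward the fragment's middle and counted in 500 bp around each TSS of GENCODE vM1, a release on the same build, and in 500 bp bins. The 2 libraries of a preparation were summed. Counts were made here from read lists, so limma's voom (limma 3.58.1, R 4.3.3) was used between cell types, with Benjamini-Hochberg adjustment over all windows or bins, and an exact binomial test (windows) or a Poisson test (bins) against input scaled to the ChIP depth. Bins entered limma with 10 or more reads, and windows without a filter. Starts were found to be 1-based by matching reads to the genome. Uniqueness is the share of 27-base words that occur once in the genome without mismatch. Calls were tested on simulated data. The simulated TSS windows held more reads than those of the members, so calling at the members' depth was not tested. The letters do not pair preparations across cell types (correlation of deviations -0.0788 over TSS windows and 0.0083 over bins). Windows over 100 input reads, 12 in all, were left out of the profile and in an alternative chosen after seeing the data.

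Genes were named by rule: members nearest to a called bin or with a called TSS window, the 5 members with the most reads per cell type, Sfpi1, and the called genes of the olfactory signalling list. Sequences were shown for the sites with the most reads, and the Olfr1264 site, the members named for an unadjusted p, the Olfr1086 bin, the called neighbours and the stretch without MEL reads were chosen after their values were seen. The members and lists were chosen with earlier results of these data known.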

Additional observations from a re-analysis of the deposited data

Results flagged for a closer look

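At 4 sites, 1 of the 4 MEL libraries stood apart from the other 3 by Dixon's test on RPM (reads scaled to 1000000 in the library), among 31 groups of 4 libraries tested. Chance would flag about 1 in 20 such groups if the values spread normally, which counts this small do not. All 4 rest on libraries with at most 5 reads. Where 3 libraries hold no read and 1 holds any, the gap is always 1, so the 4 flags cannot be set against that rate. At the Olfr992 site library B1 had 5 reads, or 1.83 RPM, against 0.487 to 0.706 in the others, with a gap of 0.837 of the range. At the distal Olfr1044 site library B1 had no read against 0.470 to 0.549 RPM, with a gap of 0.857 of the range. At the Olfr1009 site library B2 had 2 reads, and at the Olfr140 site library B1 had 1 read, where the other 3 libraries had none, so the gap was the whole range, or 1.

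At 4 bins both preparations of one cell type lay above their share of the local background and both of the other lay below it. The first part was a condition of the call, so only the low counts of the other cell type were free to vary. They were the bins of the Olfr1040 site, with 94 ES-EP reads against 0 in MEL cells, the Olfr140 site, with 12 against 1, the Olfr1037 site, with 11 ES-EP reads against 2, and the Olfr1238 site, with 12 MEL reads against 4 in ES-EP. The test of the difference with limma did not pass at any of them (adjusted p = 0.887 at each). At the Olfr1040 site the MEL input was empty too, with 0 reads within 2000 bp beside 10 in the ES-EP inputs, while at the Olfr1037, Olfr140 and Olfr1238 sites it had 3, 3 and 2 reads within 2000 bp.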

How the results depend on the processing

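No member was called at its TSS under any alternative tried, for ChIP against input or for MEL cells against ES-EP. A minimum of 20 reads left no member to test. The number of called bins in MEL cells, 8, fell to 5 with 1 read per position and strand, to 3 without the read shift, and to 1 to 3 with a single preparation. In ES-EP the 10 bins became 2 without preparation A and 8 without preparation B. For MEL cells against ES-EP, where no bin was called, limma on log2 CPM called 2 bins and treating each library as a sample called 2, both times the Olfr1040 bin and the higher bin of the distal Olfr1044 site. Libraries of the same preparation are not independent, so the latter fit counts too many replicates. With the preparation letter as a replicate block 1 bin was called, the Olfr1040 bin, although the letters do not pair the cell types. The causes of these changes were not tested. Of 72 alternatives 61 kept their result, 8 moved and 3 brought the Olfr1040 bin past the threshold, and none reversed. The limits are few reads per window, 1 MEL input library, 2 preparations per cell type and 69.2% unique words.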
